A study of Mus musculus with 6 samples.

Results

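Bone morphogenetic protein (BMP) signalling in the thymic endothelium was followed through 10 genes: the ligand Bmp6, the receptors Acvrl1 and Bmpr2, the coreceptor Eng, the signal transducer Smad1, the inhibitory SMADs Smad6 and Smad7, and the target genes Id1, Id2 and Id3. They were taken by gene symbol from tables of 24457 genes, each symbol was found once, and all 10 were above the filter on low values (2 or more libraries with an FPKM of 1 or more), which left 11717 genes for testing. Thymic endothelial cells (ECs) of wild-type female C57BL/6 mice, aged 4 to 6 weeks by the sample labels, had been sorted as CD31+CD45-EpCAM- cells and divided by Ly6C and P-selectin (Selp) into 3 subsets: Ly6C+Selp- (type I), Ly6C+Selp+ (type II) and Ly6C-Selp+ (type III). RNA of each subset was sequenced in 2 libraries, 6 in all, without any treatment or altered allele in any group. The labels give a sort purity of at least 90% and do not say how many mice or which sorts a library came from, so the p-values measure the spread between these libraries only.

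BMP ligands bind complexes of serine/threonine kinase receptors on the cell surface, in which BMPR2 and its kin activate kinases of the ALK family. The ALK kinase then phosphorylates the receptor-regulated SMADs, among them SMAD1, which enter the nucleus with SMAD4 and switch on target genes such as the ID genes. In ECs this kinase is mostly ALK1 (Acvrl1), with endoglin (Eng) as its coreceptor. The inhibitory SMADs are themselves induced by the pathway and shut it down at the receptor. ID proteins lack a DNA-binding domain and hold class I helix-loop-helix factors away from DNA.

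Values are FPKM, the fragments of a gene divided by its transcript length and by the depth of the library, so levels of different genes can be set side by side. The fragments behind each value, read back from the deposited interval bounds, summed to between 1452476 and 2423171 per library. Among the 10 genes they ran from 39 for Id2 in type I replicate 2 to 2731 for Eng in type III replicate 2. The sorting genes followed the labels: Selp was at 5.20 to 7.87 FPKM in type I ECs and at 313 to 657 in the Selp+ subsets, and Ly6c1 was at 59.7 to 99.6 in type III ECs and at 351 to 1010 in the Ly6C+ subsets. All 8 endothelial markers were present in every library. Pericyte and mesenchymal markers, 10 genes, summed to 629 and 282 FPKM in type I, 732 and 457 in type II and 226 and 257 in type III libraries. Haematopoietic markers, 11 genes, summed to 27.9 to 192 FPKM and were higher in replicate 1 than in replicate 2 of every subset. Fewer cells of a type and less RNA per cell cannot be told apart in such bulk libraries.

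The target Id1 was lower in type III than in type I ECs, while the ligand Bmp6 and the coreceptor Eng were higher. These 3 of the 10 genes passed the test between those subsets (limma, adjusted p below 0.05), where 4.14% of all tested genes did, 2.09% as higher and 2.05% as lower. All 10 genes had replicates that did not overlap between the subsets, 5 higher (Bmp6, Bmpr2, Eng, Smad1, Id2) and 5 lower (Acvrl1, Smad6, Smad7, Id1, Id3) in type III ECs, and 37.9% of all tested genes showed this, 20.7% as higher and 17.1% as lower. After median-of-ratios scaling of the libraries, Smad6 and Smad7 overlapped, so that 8 of the 10 genes were separated, beside 45.4% of all tested genes. The median log2 fold change of the 10 genes was 0.11 beside 0.08 over all tested genes. With 2 libraries against 2, an exact permutation test of a single gene cannot give a two-sided p below 0.33, and the tests rest on limma's fit across all genes.

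**Figure D1:**
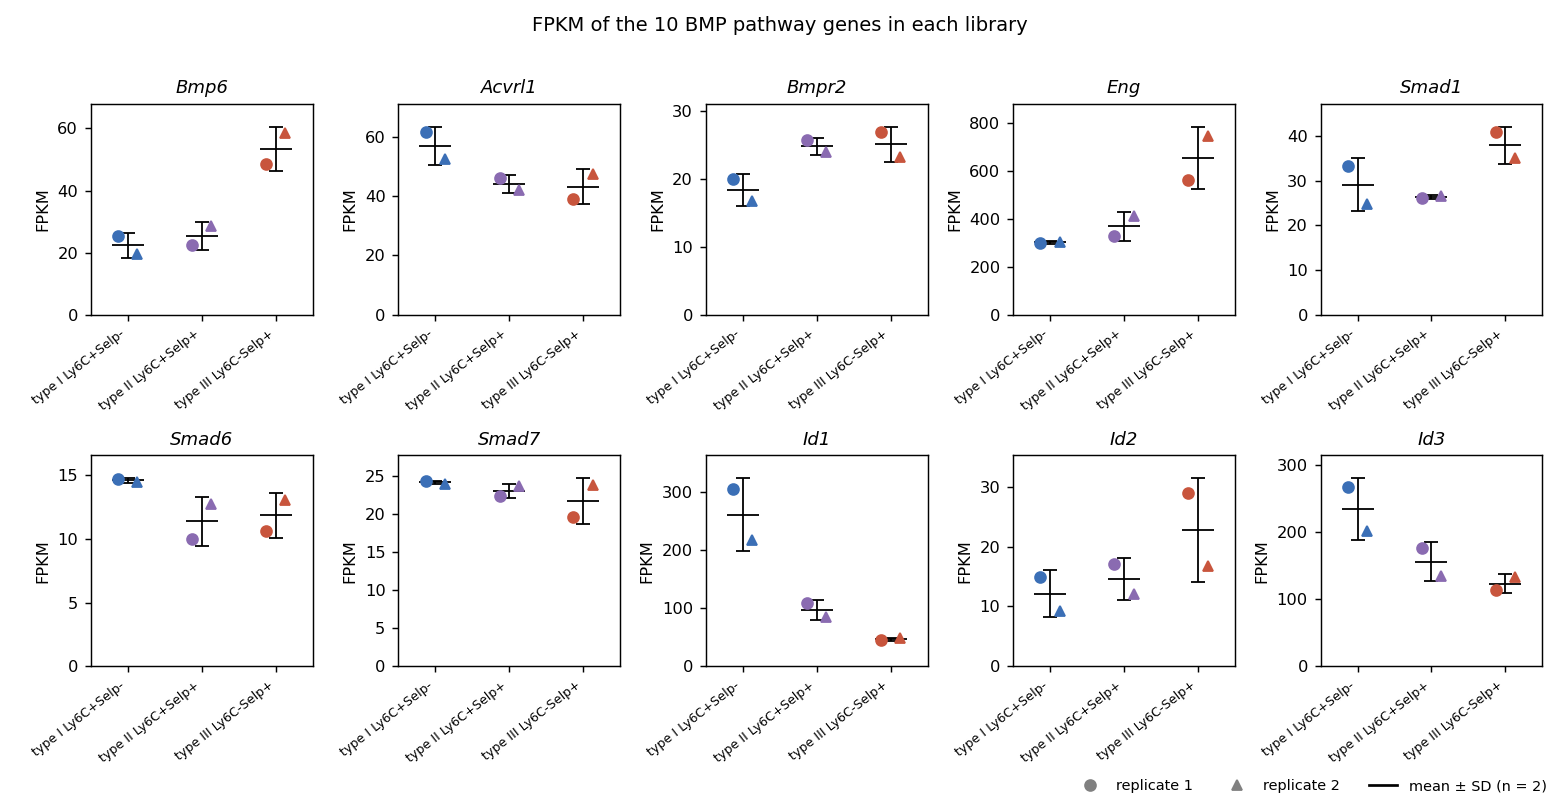
FPKM of the 10 genes (vertical axes, linear, from 0) in the 6 libraries, by subset on the horizontal axes. Circles are replicate 1, triangles are replicate 2, and the black bars are the mean and SD (n = 2). Id1 steps down from 216 to 305 FPKM in type I to 44.3 to 47.7 in type III libraries, and Eng steps up from 298 to 305 to 564 to 748.

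Bmp6 encodes a BMP ligand made by ECs of several organs. It was at 25.2 and 19.5 FPKM in the type I libraries, at 22.3 and 28.6 in the type II libraries and at 48.4 and 58.5 in the type III libraries (replicates 1 and 2). The Ly6C+ subsets overlapped and both type III libraries were above all others. Between type III and type I ECs Bmp6 rose by 1.23 on the log2(FPKM + 1) scale (SE 0.27, adjusted p = 0.036 by limma). From type I to type II ECs the difference was 0.18 (SE 0.27), with an interval of -0.42 to 0.78, and from type II to type III ECs it was 1.05 (SE 0.27, adjusted p = 0.19). The call between the outer subsets held without type I replicate 1 (adjusted p = 0.037) and was lost without each of the other 5 libraries: adjusted p = 0.14 without type I replicate 2, 0.057 and 0.062 without type II replicates 1 and 2, and 0.12 and 0.19 without type III replicates 1 and 2. The gene lies on the plus strand of chromosome 13 (mm9, 38437585 to 38591597).

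Eng encodes endoglin, an endothelial transmembrane glycoprotein that presents ligand to ALK1, and it had the highest FPKM of the 10 genes in every library but type I replicate 1, where Id1 was above it. Its FPKM was 298 and 305 in type I, 327 and 411 in type II and 564 and 748 in type III libraries. The 3 subsets were ordered without overlap. Such an order in either direction was found in 7.77% of all tested genes and in 3 of the 10, rising for Eng and falling for Id1 and Id3 (3.63% of all tested genes fell so). After median-of-ratios scaling Eng overlapped between the Ly6C+ subsets. Between type III and type I ECs Eng rose by 1.10 on the log2(FPKM + 1) scale (SE 0.25, adjusted p = 0.040 by limma). The steps on either side of type II ECs were 0.28 (SE 0.25, adjusted p = 0.94) and 0.82 (SE 0.25, adjusted p = 0.28). The call was lost without any 1 of the 6 libraries, with adjusted p from 0.064 (without type I replicate 1) to 0.24 (without type III replicate 2), and after median-of-ratios scaling (adjusted p = 0.082) or quantile normalization (adjusted p = 0.12), while the difference stayed between 0.83 and 1.31 in all alternatives.

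The kinase receptors did not pass the test in any comparison. Acvrl1 encodes ALK1, the kinase receptor with which endoglin acts. It was at 61.6 and 52.5 FPKM in type I, 46.1 and 42.0 in type II and 39.0 and 47.3 in type III libraries. Both Selp+ subsets lay below the type I libraries and overlapped each other. The log2 difference of type III from type I ECs was -0.40 (SE 0.24), with an interval of -0.94 to 0.15 (adjusted p = 0.56). Bmpr2, the BMP receptor that activates the ALK kinases, was at 20.0 and 16.8 FPKM in type I, 25.7 and 23.9 in type II and 27.0 and 23.3 in type III libraries. Here the Selp+ subsets lay above the type I libraries and overlapped each other, and the log2 difference between the outer subsets was 0.43 (SE 0.25), with an interval of -0.13 to 1.00 (adjusted p = 0.53). Acvrl1 lies on chromosome 15 (mm9, 100958953 to 100975767) and Bmpr2 on chromosome 1 (mm9, 59821123 to 59934925), both on the plus strand.

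Replicates of Eng lay higher and those of its partner receptor Acvrl1 lower in type III than in type I ECs. Their ratio was therefore read within each library, where depth cancels. Eng over Acvrl1 was 4.84 and 5.82 in type I, 7.10 and 9.79 in type II and 14.4 and 15.8 in type III libraries. The ratios of the 3 subsets did not overlap. For type I ECs against either Selp+ subset this follows from the separation of both genes. The ratios are given as a description, since only Eng passed the test.

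The sequences before the starts of Eng, Bmp6 and Id3 are shown because these genes differed most between the outer subsets among those with an entry in the promoter table, taken from RefSeq (GRCm38.p6). Of the 10 genes, 7 had an entry there (windows of 250 bases before to 50 after the start), and Id1, Acvrl1 and Smad7 had none. Each window was placed on mm9 (NCBIM37), the build of the files, where the 250 bases before the start matched at 1 place. They were searched on both strands for CAGAC, a SMAD-binding letter string that holds the reverse complement of the shorter GTCT, for GGCGCC, a GC-rich string bound by SMAD1, and for CANNTG, the E box of helix-loop-helix factors. Capitals mark CAGAC or its reverse complement GTCTG. All are on the plus strand, as are the genes. The 250 bases before the Bmp6 and Id3 starts overlap annotated exons of the same genes, so only short stretches of them are shown. Those before the Eng start overlap no annotated exon. The first is the whole 250 bases before the Eng start, chr2:32501865-32502114, and the others are 25-base stretches at chr13:38437456-38437480 for Bmp6 and at chr4:135699560-135699584 and chr4:135699659-135699683 for Id3.
Eng, 250 bases before the start: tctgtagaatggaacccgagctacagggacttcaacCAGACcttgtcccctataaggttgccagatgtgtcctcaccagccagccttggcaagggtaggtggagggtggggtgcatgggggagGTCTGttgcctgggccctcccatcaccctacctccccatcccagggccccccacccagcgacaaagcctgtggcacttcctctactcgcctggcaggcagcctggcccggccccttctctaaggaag
Bmp6, 119 bases before the start: cgcacgtgtgCAGACtgcgagtgac
Id3, 167 bases before the start: tcctcggcgtCAGACcagcctaagg
Id3, 68 bases before the start: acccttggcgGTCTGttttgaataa

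CAGAC was thus in the windows of 3 of the 7 genes, at 2 places each in Eng and Id3 and at 1 in Bmp6, and it was in 49.6% of the 32851 windows of the table. GGCGCC was in 2 of the 7, 231 bases before the Id2 start and 105 bases before the Bmpr2 start, beside 11.9% of all windows. CANNTG was in 4 of the 7, Bmp6, Eng, Id2 and Smad6, beside 72.3% of all windows. Eng lies at 32502115 to 32538189 on chromosome 2 and Id3 at 135699737 to 135701307 on chromosome 4 (mm9).

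None of the SMAD genes among the 10 passed the test in any comparison. Smad1 encodes the receptor-regulated SMAD that carries the BMP signal to the nucleus. Its FPKM was 33.3 and 24.9 in type I, 26.0 and 26.6 in type II and 40.9 and 35.0 in type III libraries. The type III libraries were the highest and the Ly6C+ subsets overlapped, and the log2 differences of type III ECs were 0.38 (interval -0.19 to 0.96, adjusted p = 0.61) from type I and 0.51 (interval -0.07 to 1.09, adjusted p = 0.57) from type II ECs.

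Smad6 and Smad7 encode the inhibitory SMADs, of which the former acts chiefly on BMP receptors and the latter also on TGF-β receptors. Smad6 was at 14.7 and 14.5 FPKM in type I, 10.02 and 12.7 in type II and 10.6 and 13.1 in type III libraries. Smad7 was at 24.4 and 24.1, 22.5 and 23.7, and 19.6 and 23.9 in the same order. Both were highest in the type I libraries, for Smad7 narrowly so over type III replicate 2. Between the outer subsets the log2 difference was -0.29 (interval -0.91 to 0.33) for Smad6 and -0.16 (interval -0.71 to 0.40) for Smad7, so that a fall of Smad7 by 1 on the log2 scale, less than the difference found for Id1, lay outside its interval. Smad6 over Smad1 within a library was 0.443 and 0.582 in type I, 0.385 and 0.479 in type II and 0.260 and 0.373 in type III libraries, where the type III values were the lowest and the Ly6C+ subsets overlapped. Smad1 (81862298 to 81923367 on chromosome 8) and Smad6 (63800883 to 63869866 on chromosome 9) lie on the minus strand (mm9).

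Of the ID genes among the 10, Id1 differed most and Id3 less in the same direction, and Id2 lay the other way. Id1 was at 305 and 216 FPKM in type I, 109 and 84.2 in type II and 44.3 and 47.7 in type III libraries. The 3 subsets were ordered without overlap, and every library of a subset was below every library of the one before it. Id1 fell by 2.46 on the log2(FPKM + 1) scale between type I and type III ECs (SE 0.26, adjusted p = 0.0011 by limma), and this call held in 13 of 14 alternatives, all but the one with no filter on low values (adjusted p = 0.075). The steps from type I to type II ECs, -1.41 (SE 0.26, adjusted p = 0.070), and from there to type III ECs, -1.04 (SE 0.26, adjusted p = 0.18), did not pass. With the replicate number as a block both did (adjusted p = 0.014 and 0.041), and so did both after median-of-ratios scaling (0.018 and 0.036) and quantile normalization (0.0099 and 0.022). Id1 lies on the plus strand of chromosome 2 (mm9, 152561987 to 152563146).

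Id3 followed Id1 with a smaller difference. It was at 267 and 201 FPKM in type I, 176 and 135 in type II and 113 and 133 in type III libraries. The 3 subsets did not overlap, with a gap between the Selp+ subsets of 132.55 to 134.90 FPKM only. Its log2 difference between the outer subsets was -0.92 (SE 0.26, interval -1.49 to -0.34, adjusted p = 0.098). With the replicate block (adjusted p = 0.028), after median-of-ratios scaling (0.021) and after quantile normalization (0.0088) Id3 passed.

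Id2 was lower than Id1 and Id3 in every library and rested on 39 to 67 fragments. It was at 14.9 and 9.31 FPKM in type I, 17.0 and 12.1 in type II and 28.9 and 16.7 in type III libraries. Replicate 1 was above replicate 2 in each subset, and only the outer subsets were separated. After median-of-ratios scaling Id2 rose over all 3 subsets without overlap. Their log2 difference was 0.84 (SE 0.36, interval 0.04 to 1.65, adjusted p = 0.32), and it passed with the replicate block (adjusted p = 0.036), which takes out what replicates of 1 number share. Haematopoietic cells are a known source of Id2, and the summed haematopoietic markers were likewise higher in replicate 1 than in replicate 2 of each subset, at 111 and 27.9, 73.2 and 46.6, and 192 and 83.3 FPKM. Their part in the Id2 values was not tested. With the block, 5 of the 10 genes passed between the outer subsets in place of 3, and 971 of all 11717 tested genes in place of 485.

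**Figure D2:**
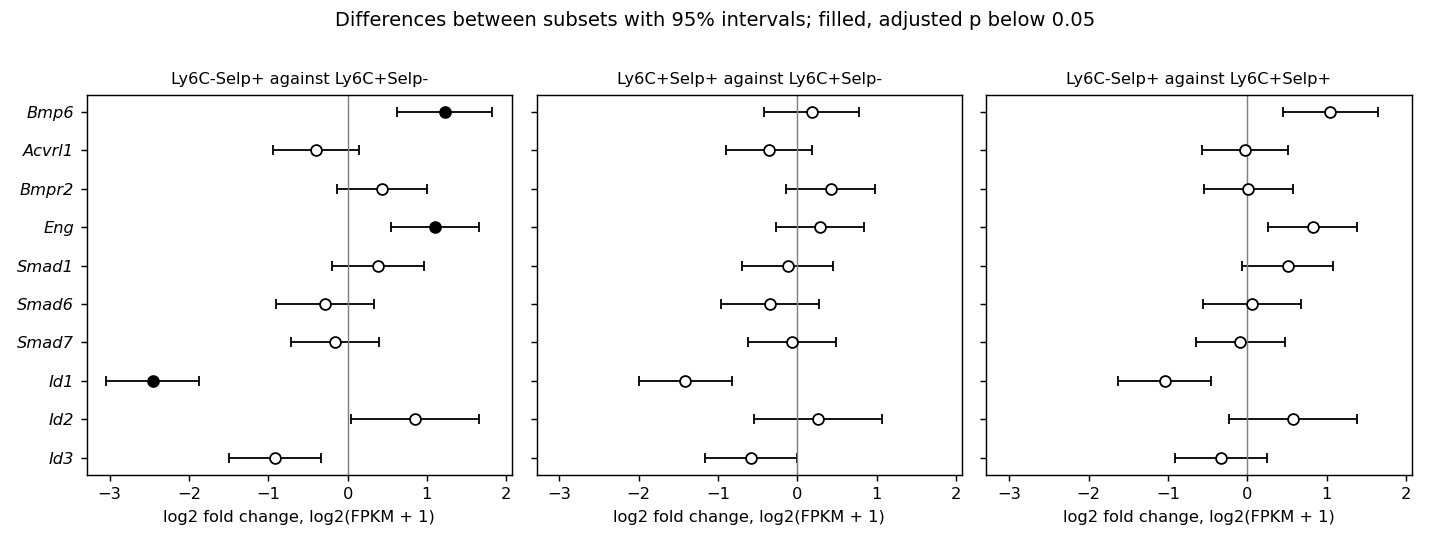
Log2 fold changes of the 10 genes on the log2(FPKM + 1) scale (horizontal axes) in the 3 subset comparisons, with 95% intervals from limma. Filled points passed the adjusted p of 0.05: Bmp6, Eng and Id1 between type III and type I ECs, and none in the comparisons with type II ECs.

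The share of Id1 in the summed Id1, Id2 and Id3 differed between the subsets beyond the spread of the replicates. Id1, Id2 and Id3 together reached 587 and 427 FPKM in type I, 302 and 231 in type II and 186 and 197 in type III libraries. Of this sum Id1 made up 52.0% and 50.7%, 36.1% and 36.4%, and 23.8% and 24.2% in the same order, which no rescaling of a library can change. The Id1 shares of replicates were at most 1.29 percentage points apart, and the nearest libraries of type I and type II and of type II and type III were 14.3 and 11.9 points apart. Id3 took the largest share in the Selp+ subsets, 58.3% and 58.4% in type II and 60.6% and 67.3% in type III libraries, against 45.5% and 47.1% in type I. Id2 made up 2.18% to 2.54%, 5.23% to 5.64% and 8.47% to 15.5%. Id3 over Id1 was accordingly 0.874 and 0.929, 1.62 and 1.60, and 2.54 and 2.78. For the Id3 and Id2 shares, the type III replicates lay further from each other than the nearer of them lay from the type II libraries.

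Class I helix-loop-helix genes encode the partners that ID proteins bind. Tcf3, Tcf4 and Tcf12 summed to 131 to 161 FPKM in type I, 121 to 132 in type II and 125 to 136 in type III libraries, where the subsets overlapped. By limma, 0 of the 3 passed in any comparison at an adjusted or an unadjusted p below 0.05, and the log2 differences between the outer subsets were -0.55 for Tcf3 (interval -1.15 to 0.05), -0.14 for Tcf4 (interval -0.71 to 0.43) and 0.43 for Tcf12 (interval -0.26 to 1.11). Summed Id1, Id2 and Id3 were 3.65 and 3.27 times the summed partners in type I, 2.28 and 1.91 times in type II and 1.37 and 1.57 times in type III libraries, without overlap.

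**Figure D3:**
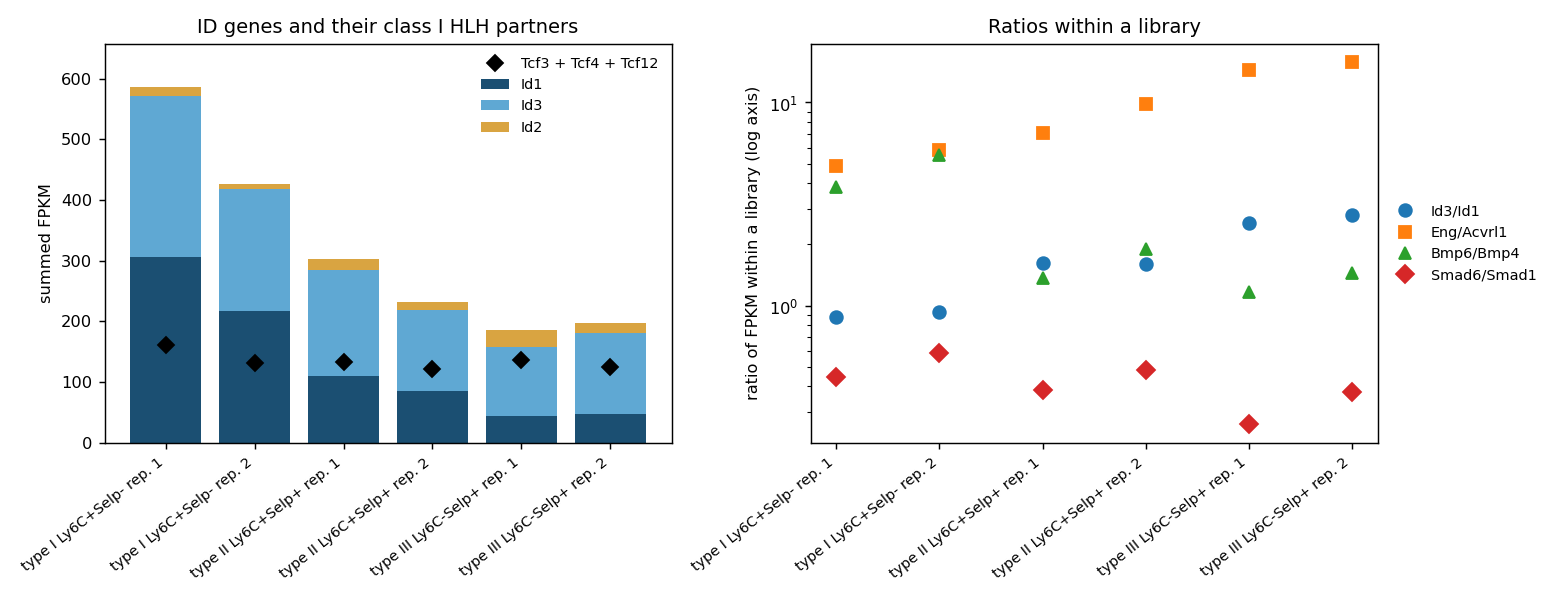
Left, stacked bars of the FPKM of Id1, Id3 and Id2 in each library from 0, with diamonds for the summed FPKM of Tcf3, Tcf4 and Tcf12. Right, 4 ratios of FPKM within each library on a log axis. The bars shrink from 587 to 186 while the diamonds stay between 121 and 161, and Id3 over Id1 and Eng over Acvrl1 are ordered by subset without overlap.

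ECs of type II, positive for both sorting markers, stood at different points relative to the other subsets for different genes. Between them and type I ECs 0 of the 10 genes passed by limma, where 0.393% of all tested genes did. An unadjusted p below 0.05 was found for 2 (Id1, Id3), beside 877 of all 11717 tested genes. Between type II and type III ECs 0 of the 10 passed, where 0.222% of all tested genes did. Here 3 (Bmp6, Eng, Id1) had an unadjusted p below 0.05, beside 1170 of all 11717 tested genes. Replicates did not overlap for 7 of the 10 genes in the former comparison (33.6% of all tested genes) and for 5 in the latter (41.0%). After median-of-ratios scaling these counts were 5 (40.6%) and 7 (40.0%). On the path from the type I to the type III mean of log2(FPKM + 1), the type II mean stood at 57.6% for Id1, and at 50.1% to 65.1% with 1 library left out. For Id3 it stood at 63.8% (43.0% without type II replicate 2 to 84.6% without type II replicate 1). Positions of the other genes were less certain. Eng was at 25.5%, from 10.6% without type II replicate 2 to 40.4% without type II replicate 1. Bmp6 was at 14.6%, but at 0.177% and 0.486% without type I or type II replicate 2 and at 25.4% and 28.7% without type I or type II replicate 1, and the 2 replicate numbers gave steps from type I to type II of opposite sign (-0.17 and 0.53 on the log2 scale). In each of these cases the larger part of the Eng and Bmp6 differences lay between type II and type III ECs. Acvrl1 was at 91.4% (68.1% to 139%, the extremes without type III replicates 2 and 1) and Bmpr2 at 96.7% (78.2% to 127%, likewise). Smad1, at -32.6%, and Smad6, at 119.5%, lay outside the other subsets, and neither side was kept when a library was left out (-182% to 13.3% and 64.4% to 232%). Smad7 ran from 19.7% to 362% and Id2 from -9.35% to 58.5%. A test of type II ECs against the midpoint of the other subsets called 0 of the 10 genes by limma, beside 0.0427% of all tested genes, with 0 at an unadjusted p below 0.05, so these positions are descriptions. The median log2 fold change of all tested genes between type III and type II ECs was 0.14 as deposited and 0.01 after median-of-ratios scaling, and the differences of Bmpr2 and Smad6, 0.01 and 0.06 at this step, changed sign with the scaling.

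Other genes of the pathway, 73 in 6 lists, were counted alongside, and 47 of them were above the filter. Between type III and type I ECs 2 of the 47 passed as higher and 5 as lower, beside 2.09% and 2.05% of all tested genes. Of the other ligands, 5 of 16 were above the filter and 1 of these passed. It was Bmp4, a BMP ligand of mesenchyme and endothelium, at 6.58 and 3.56 FPKM in type I, 16.2 and 15.02 in type II and 41.6 and 40.4 in type III libraries. The subsets were ordered without overlap, and Bmp4 rose by 2.84 on the log2(FPKM + 1) scale between the outer ones (SE 0.30, adjusted p = 0.0012 by limma). With the replicate block it also passed on either side of type II ECs (adjusted p = 0.025 and 0.037). Bmp6 over Bmp4 was 3.84 and 5.48 in type I and between 1.16 and 1.91 in the Selp+ libraries. Inhbb, which encodes an activin subunit, was the other ligand gene of high level, at 33.2 ± 2.16, 32.5 ± 9.97 and 45.7 ± 13.7 FPKM (SD, n = 2) in the same order (adjusted p = 0.66 between the outer subsets). Bmp10 and Gdf2, which encodes BMP9, the circulating ligands of ALK1, were listed at 0 in all 6 libraries, as were Gdf5 and Gdf6.

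Of 14 target genes of BMP signalling or of endothelial SMADs, 12 were above the filter. In type III against type I ECs 1 of these 12 passed as higher and 5 as lower, beside 2.09% and 2.05% of all tested genes. The median log2 fold change of the 12 was -0.72, beside 0.08 over all tested genes. Among the 12, Gja4 and Gja5 (connexins of arterial endothelium) and Hey1 also answer to Notch, so the list does not belong to BMP alone. Hey1, a transcriptional repressor, was at 24.3 and 16.8 FPKM in type I, 6.52 and 6.45 in type II and 3.34 and 0.774 in type III libraries and fell by 2.94 on the log2 scale between the outer subsets (SE 0.43, adjusted p = 0.0057). Gja4 was at 28.1 and 27.0, 23.3 and 14.9, and 1.51 and 3.83 FPKM and fell by 3.04 (SE 0.37, adjusted p = 0.0022). Both were ordered by subset without overlap. Gja5, at 13.6 and 15.3, 14.5 and 4.05, and 1.22 and 0.354 FPKM, fell by 3.15 (SE 0.51, adjusted p = 0.0092), and its type II replicates stood far apart. Without type I replicate 2 its adjusted p was 0.0505, above the threshold.

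Atoh8, a helix-loop-helix factor of the ALK1 pathway, was at 13.9 and 14.0 FPKM in type I, 9.98 and 7.87 in type II and 3.52 and 6.13 in type III libraries. It fell by 1.40 on the log2 scale between the outer subsets (SE 0.32, adjusted p = 0.045), a call lost without any 1 of the 6 libraries (adjusted p from 0.053 without type III replicate 2 to 0.30 without type III replicate 1). The homeobox gene Msx1 was at 6.26 and 3.54 FPKM in type I, 2.68 and 1.56 in type II and, in type III, at 0.774 in replicate 1 and listed at 0 in replicate 2. It fell by 2.11 (SE 0.44, adjusted p = 0.030 by limma), a call that held in 8 of 13 alternatives. The call was lost, among others, without type I replicate 1 or 2 or without type III replicate 2. Gata6, a zinc-finger factor, went the other way, at 2.87 and 1.19, 8.71 and 6.92, and 12.9 and 18.8 FPKM, and rose by 2.51 (SE 0.37, adjusted p = 0.0057). Id4, the ID gene outside the 10, is named here after its values were seen. It was at 4.37 and 5.60, 5.21 and 3.14, and 1.23 and 3.01 FPKM, below Id2 in every library and on 3 to 30 fragments, with a log2 difference of -0.99 between the outer subsets (SE 0.40, interval -1.90 to -0.09, adjusted p = 0.29). Klf2, a flow-responsive factor and the highest of the list, was at 187 ± 3.99, 132 ± 18.6 and 161 ± 53.7 FPKM (SD, n = 2), with an adjusted p of 0.79 between the outer subsets.

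**Figure D4:**
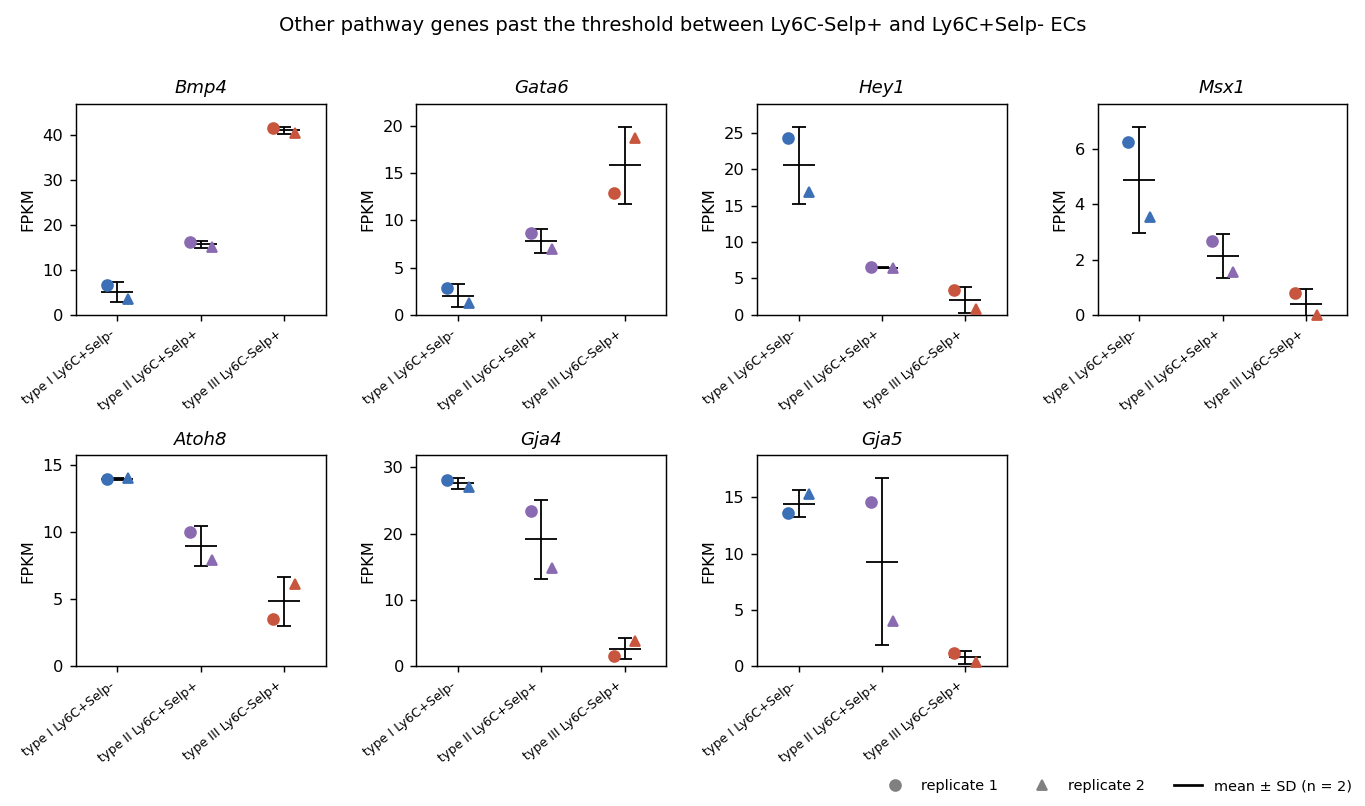
FPKM of the 7 other pathway genes that passed between type III and type I ECs (vertical axes, linear, from 0), by subset. Circles are replicate 1, triangles are replicate 2, and the black bars are the mean and SD (n = 2). Bmp4 and Gata6 rise by subset, and Hey1, Msx1, Atoh8 and Gja4 fall by subset, without overlap, whereas Gja5 overlaps between the Ly6C+ subsets.

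The signalling machinery showed no call by limma on the deposited values without the replicate block. Of the other receptors and coreceptors 0 of 10 above the filter passed between the outer subsets (1, Rgma, at an unadjusted p below 0.05, which passed as lower with the replicate block and after either scaling). Among the other SMADs and their regulators 0 of 10 passed (2, Smad3 and Smurf1, unadjusted), and of the antagonists and modulators 0 of 8 (3, Crim1, Fst and Fstl1, unadjusted). Over all 11717 tested genes, 1648 had an unadjusted p below 0.05 between the outer subsets. Tgfbr2 and Tgfbr3, the TGF-β receptors of highest level, were at 68.5 ± 6.92, 43.7 ± 6.51 and 63.9 ± 11.8 and at 40.1 ± 8.71, 52.7 ± 2.65 and 54.8 ± 2.36 FPKM (SD, n = 2) from type I over type II to type III ECs. Ski, a SMAD corepressor, and Ppm1a, a SMAD phosphatase, had log2 differences of -0.16 (interval -0.73 to 0.40) and 0.03 (interval -0.66 to 0.72) between the outer subsets. The antagonist Crim1, a transmembrane protein that binds BMPs, was at 67.9 ± 0.738, 81.5 ± 3.08 and 132 ± 23.8 FPKM, and its log2 difference of 0.93 (adjusted p = 0.063) passed with the replicate block (adjusted p = 0.015). So did that of Fstl1, a secreted follistatin-like protein, at 0.80 (adjusted p = 0.16, and 0.027 with the block). Between type II and type I ECs 0 of the 47 genes passed by limma, with 6 at an unadjusted p below 0.05 beside 877 of all tested genes. Between type III and type II ECs 1 did, Gja4, with a log2 difference of -2.50 (SE 0.37, adjusted p = 0.044). The Gja4 call held in 8 of 14 alternatives, with log2 differences from -2.97 to -2.02 over all of them. It was lost, among others, without type II replicate 1 or type III replicate 1. With the replicate block Gja5 also passed at this step, as lower (log2 difference -2.35, adjusted p = 0.032, beside 0.13 without the block).

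Of the marker lists, 1 of the 10 pericyte and mesenchymal genes passed between the outer subsets. It was Pdgfrb, lower in type III ECs (log2 difference -1.85, adjusted p = 0.013 by limma). Replicates of 4 of the 10 were separated as lower there and of 1 as higher, beside 17.1% and 20.7% of all tested genes. The gene separated as higher was Acta2 (log2 difference 1.16, adjusted p = 0.18 by limma). Id1 and Id3 are also made by mural cells, and the part of such cells in their difference was not tested. From type I to type II ECs 5 of the 10 pericyte and mesenchymal genes were separated as higher and 0 as lower (median log2 fold change 0.78). From type II to type III ECs 0 were separated as higher and 8 as lower (median -1.05). Over all tested genes 33.6% and 41.0% were separated at these steps in either direction, with medians of -0.06 and 0.14. By limma 0 of these 10 markers passed at either step. An unadjusted p below 0.05 was found for 4 and 7 of them, beside 877 and 1170 of all 11717 tested genes. Of the 11 immediate early genes, which respond to tissue digestion and sorting, 2 passed as lower in type III ECs, Dusp1 (-1.25, adjusted p = 0.015) and Nr4a1 (-1.08, adjusted p = 0.029), and their part in the Id1 values was not tested either. Of the haematopoietic, epithelial and lymphatic markers above the filter, 0 of 9, 0 of 7 and 0 of 4 passed by limma. Between the outer subsets 1, 2 and 3 of them had an unadjusted p below 0.05, beside 1648 of all 11717 tested genes. Of the endothelial markers 1 of 8 passed, Kdr, as lower. From type II to type III ECs 6 of the 9 haematopoietic genes were separated as higher and 0 as lower (median log2 fold change 0.99). At the step from type I to type II ECs 0 of them were separated.

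Genes with a pattern most like that of Id1 or Bmp6 were sought among 4196 genes with a mean of at least 10 FPKM, by the root mean square difference of centred log2(FPKM + 1) values over the 6 libraries. The 5 nearest to Id1 were Mcc (0.11), Slc9a3r2 (0.17), Podxl (0.18), Tcf15 (0.19) and Notch4 (0.21). Of these, Tcf15 encodes a helix-loop-helix factor of capillary endothelium, and it was at 51.3 and 34.7 FPKM in type I, 18.7 and 19.6 in type II and 8.04 and 7.45 in type III libraries. The 5 nearest to Bmp6 were Pdlim4 (0.15), Eng (0.15), Ppp2r5b (0.16), Nucb1 (0.16) and Isyna1 (0.17), so that the ligand's second neighbour among all these genes was the coreceptor. These distances are descriptions over 6 libraries that share the subsets' order.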

How the data were processed

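ECs of 3 thymic subsets were compared, 2 libraries each. Per the labels' processing notes (CASAVA 1.8, TopHat2 2.0.10, Cufflinks 2.1.1, Cuffdiff; mm9), the authors mapped the reads and deposited, for each library on its own, FPKM values with interval bounds. The strand setting and gene annotation are not given in the sources used here. FPKM is not a count, and the values are not scaled between libraries. Rows of spike-in and reporter sequences, 95 per table, were left out, and 24457 genes were kept. Fragments were estimated from the interval bounds as if these held counting error alone. An estimate of 3 fragments was worth 0.32 to 0.55 FPKM (median over genes, by library), and changes under that level were not detectable.

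From the deposited FPKM, log2(FPKM + 1) was fitted with limma 3.58.1 (R 4.3.3, eBayes with trend), all 6 libraries in 1 fit with a mean per subset, for 11717 genes with FPKM of at least 1 in at least 2 libraries. P-values were adjusted over all genes by the Benjamini-Hochberg method (threshold 0.05), and fold changes understate those of low genes. Intervals are unadjusted 95% intervals. The genes and lists were chosen with earlier results of these data known, some of them from these libraries, and are not independent evidence. Named were the 10 genes, listed pathway genes past the threshold or among the 2 of highest mean per list, and the 5 nearest patterns of Id1 and Bmp6. Rgma, Smad3, Smurf1, Fst, Tcf12, Kdr, Pdgfrb, Acta2, Dusp1, Nr4a1 and genes listed at 0 were named after their values were seen.

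Replicates of 1 number deviated together from their subset means (correlations of replicate 1 deviations over 11717 genes 0.199, 0.306 and 0.180). The numbers were therefore taken to pair the libraries in the replicate block, although the labels name no shared litter or day. The main fit, with its SEs, intervals and p-values, did not use this pairing. Blocked values are given where they change a call. Alternatives were another pseudocount (0.1), other filters (none, or FPKM of at least 5), median-of-ratios scaling, quantile normalization, the replicate block, no trend, only the libraries compared, and each library left out. The limma fit was tested on simulated data for type III against type I ECs. The steps in Python (3.11.15, pandas 2.3.3, numpy 2.4.6) were not tested in this way.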

Additional observations from a re-analysis of the deposited data

How the results depend on the processing

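Of 420 values of the 10 genes under 14 alternatives in 3 comparisons, 376 kept direction and side of the threshold, 20 lost and 10 gained the call, and 14 turned sign, all of them small differences in comparisons with type II ECs. Causes were not tested. Between type III and type I ECs, 485 genes passed, 3 of the 10 among them. With no filter these were 102 and 0, with the replicate block 971 (515 higher, 456 lower) and 5, without trend and with only the libraries compared 1 of the 10 passed, and with 1 library left out 233 to 425 genes and 1 to 2 of the 10. Between type II and type I ECs 46 genes passed (38 higher, 8 lower) and 0 of the 10. With no filter 10 passed, after median-of-ratios scaling 99 (70 higher), after quantile normalization 103 (73 higher), with the block 183 (99 higher), without trend 15, and without 1 library 12 to 46, and 1 of the 10 (Id1) passed under either scaling and the block. Between type III and type II ECs 26 passed (11 higher, 15 lower) and 0 of the 10. With no filter 2 passed, after either scaling 90 (25 and 22 higher), with the block 229 (124 higher), without trend 10, with only the libraries compared 40, and without 1 library 5 to 47, and again 1 of the 10 (Id1) under either scaling and the block. After either scaling the 3 of the 10 called between the outer subsets were 1 higher and 2 lower (Id3 in place of Eng), against 2 higher and 1 lower as deposited.

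Values that turned sign (log2) were Smad7 0.034 between type II and type I ECs after quantile normalization, and, between type III and type II ECs, Bmpr2 -0.13 and Smad6 -0.082 after median-of-ratios scaling and -0.18 and -0.094 after quantile normalization. Without 1 library, ranges that crossed 0 were -0.33 to 0.078 for Smad1 and -0.050 to 0.58 for Id2 between type II and type I ECs, and -0.17 to 0.10 for Acvrl1, -0.088 to 0.12 for Bmpr2, -0.10 to 0.21 for Smad6 and -0.22 to 0.049 for Smad7 between type III and type II ECs. Genes at low FPKM are limited by depth: Id2 rested on 39 to 67 fragments, and Msx1 on 2 and 0 in the type III libraries.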
